A study of Mus musculus with 8 samples.

Results

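Transcripts of the citrate cycle and of the breakdown of branched-chain amino acids were measured in hearts of Carns-transgenic and wild-type mice. The genes are 30 named enzymes and subunits, taken as a list of mouse symbols and matched to the NCBI Gene numbers of the deposited tables. No threshold on measured values chose them, but earlier results of these data were known when the list was made. All 30 were found among the 18215 genes listed over the libraries, and the methylmalonyl-CoA mutase gene Mut was matched through its current symbol Mmut. The hearts came from mice labelled as Carns transgenic (TG, 4 samples) and from wild-type mice (WT, 4 samples). Polyadenylated mRNA of whole heart tissue was sequenced, and strain, age, sex and the promoter that drives the transgene are not given in the sources used here. Nothing in the labels ties each sample to an animal of its own, so a p-value here speaks of the variation among these samples only, and that variation may be technical.

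The citrate cycle burns the acetyl group of acetyl-CoA in the mitochondrial matrix and hands its electrons to the respiratory chain, and the heart, which beats without rest, relies on it for most of its ATP. Leucine, isoleucine and valine share their early steps, a transamination by Bcat2 and an oxidative decarboxylation by the branched-chain ketoacid dehydrogenase complex, and then part ways. Their carbon enters the cycle as acetyl-CoA or, through propionyl-CoA and methylmalonyl-CoA, as succinyl-CoA. Both pathways thus meet at succinyl-CoA, the substrate of succinate-CoA ligase.

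Total expected counts, the estimated number of reads per gene summed over a library, were 6261193 to 7897629 for the TG hearts and 6277698 to 7778422 for the WT hearts. Carns1, the gene of the transgene, stood between 19071 and 24288 counts scaled to library size (CPM) in the TG libraries and between 44.5 and 73.3 CPM in the WT libraries. The totals left a gap between 4 shallower libraries, TG replicates 2 and 4 and WT replicates 3 and 4, at 6261193 to 6557621 counts, and 4 deeper ones, TG replicates 1 and 3 and WT replicates 1 and 2, at 7394143 to 7897629. The labels name no batch, and each depth class holds 2 libraries of each group. All 6 cardiomyocyte markers were present in every library, with a summed level of 60288 to 71729.6 CPM in TG and 57722 to 70649 CPM in WT. TG replicate 2 stood apart in 9 genes of fat cells and lipid synthesis, whose summed level was 3448 CPM there, against 65.6 to 164 CPM in the other 7 libraries. It also stood apart in 4 atrial markers, which summed to 856 CPM there, against 61.3 to 259.8 CPM in the other 7.

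Per length, the genes of the cycle were far more abundant than those of amino acid breakdown. On the deposited FPKM scale (fragments per kilobase of transcript, scaled to library size, averaged over the 8 libraries), the median of the 15 genes counted to the cycle was 429, and that of the 13 genes of branched-chain breakdown was 34.9. The 15 include the cytosolic Mdh1 and the NADPH-making Idh2 and leave out Pcx and Me3. The most abundant was Mdh2, the mitochondrial malate dehydrogenase that closes the cycle, at 1121 ± 84.9 FPKM in TG and 1228 ± 89.0 FPKM in WT (SD, n = 4 each). Sdhb, the iron-sulphur subunit of succinate dehydrogenase, followed at 1141 ± 109 FPKM in TG and 1190.2 ± 168 FPKM in WT. Mdh1, the cytosolic malate dehydrogenase of the malate-aspartate shuttle, stood at 1023 ± 91.3 FPKM in TG and 1012 ± 77.3 FPKM in WT, and Idh2, the mitochondrial isocitrate dehydrogenase that makes NADPH, at 943 ± 87.4 FPKM in TG and 939 ± 215 FPKM in WT. The library values of these 4 genes overlapped, so that neighbours in this order do not differ beyond their spread.

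At the low end stood Dbt, the E2 core of the branched-chain ketoacid dehydrogenase, at 10.5 ± 2.94 FPKM in TG and 9.55 ± 0.692 FPKM in WT (SD, n = 4 each). Pcx, the pyruvate carboxylase that refills oxaloacetate, stood at 13.0 ± 6.28 FPKM in TG and 10.3 ± 1.54 FPKM in WT, and Mut, the mutase that turns methylmalonyl-CoA into succinyl-CoA, at 12.6 ± 3.06 FPKM in TG and 14.4 ± 2.58 FPKM in WT. Subunit transcripts of 1 complex were close in some cases, as for Mccc1 and Mccc2 at means of 22.8 and 28.5 FPKM over all libraries. In other cases they were far from equal. Bckdha, the alpha subunit of the E1 enzyme of the ketoacid dehydrogenase, stood at 173 ± 25.6 FPKM in TG and 190.4 ± 27.4 FPKM in WT, while its beta partner Bckdhb stood at 35.9 ± 2.78 FPKM in TG and 33.9 ± 9.82 FPKM in WT. Of the beta subunits of succinate-CoA ligase, the ADP-using Sucla2 stood at 114 ± 26.8 FPKM in TG and 118 ± 30.5 FPKM in WT and the GDP-using Suclg2 at 41.4 ± 4.06 FPKM in TG and 39.8 ± 3.75 FPKM in WT, and every library had more Sucla2 than Suclg2. The plot of level per length shows both groups side by side for each gene.

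**Figure D1:**
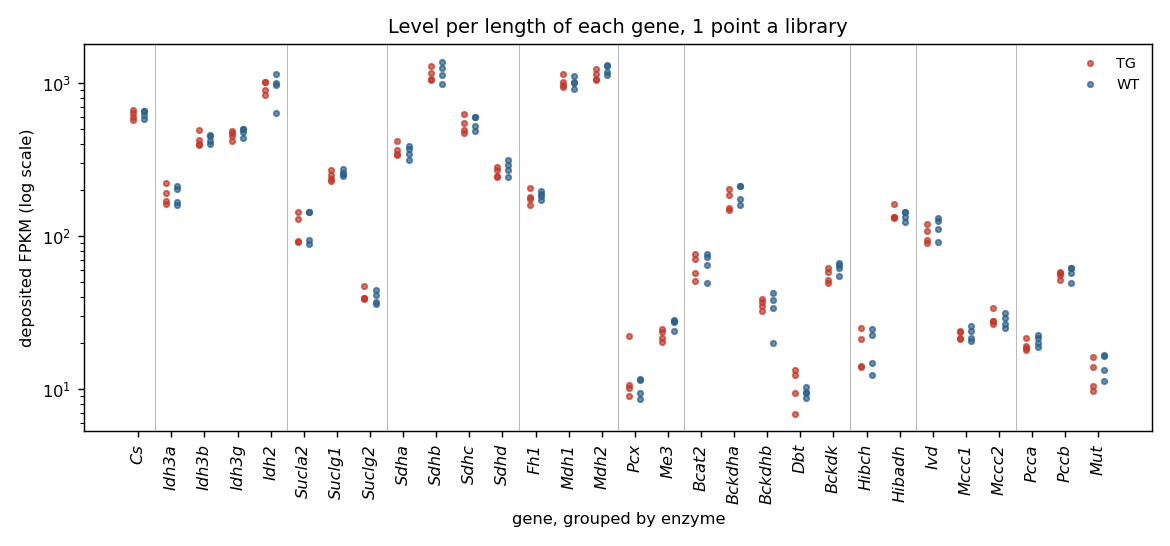
Deposited FPKM of the 30 genes on a log axis, 1 point a library, TG left of WT, with vertical lines between enzyme groups. The genes run from Dbt at a mean of 10.03 to Mdh2 at 1175 FPKM, and TG and WT points overlap in every gene.

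The comparison of TG with WT asked whether the transgene goes with another transcript level of these enzymes. None of the 30 genes passed the threshold (quasi-likelihood F-test of edgeR, Benjamini-Hochberg adjusted over all 12670 genes tested, smallest adjusted p = 0.99955), where 0.0158% of all genes tested did. By DESeq2 none passed either. At an unadjusted p under 0.05, edgeR had 1 of the 30, Me3, which was lower in TG, and DESeq2 had 0, while 3.49% of all genes tested were that low in edgeR and 1.96% were so on the lower side. In none of the 30 did the 4 TG values lie apart from the 4 WT values, where 2.53% of all genes tested were apart (1.29% lower and 1.23% higher in TG). All 30 genes were well covered and all passed the filter on low counts, with at least 178 counts in every library.

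Most estimates were small beside their intervals. The median width of the 95% intervals was 0.51 on the log2 scale for the 30 genes and 0.71 over all genes tested, and the median size of the 30 estimates was 0.056. Of the 30 log2 fold changes, 22 were under 0.1 in size, 19 were negative and 11 positive, where 50.5% of all genes tested were negative, and the median was -0.029, beside -0.0017 over all genes tested. For 29 of the 30 the 95% interval of the fold change lay wholly within 1.5-fold in either direction. The exception was Pcx. For all 30 the interval lay within 2-fold. These are values of whole tissue, in which fewer cells of a type and less RNA per cell cannot be told apart.

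**Figure D2:**
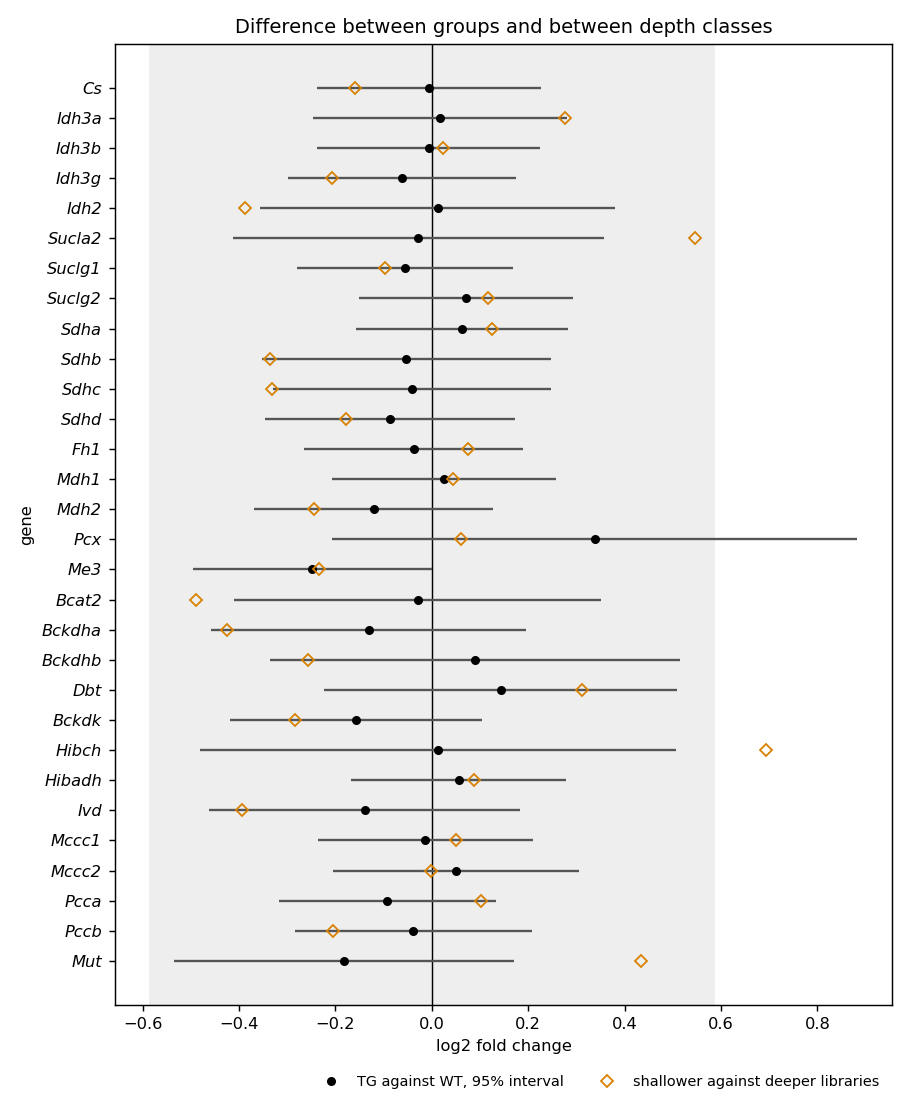
Log2 fold change of each gene, TG against WT, as black points with 95% intervals from edgeR, and shallower against deeper libraries as open diamonds, with the range of 1.5-fold in either direction shaded. Every black interval but that of Pcx lies in the shaded range, and the diamonds of Sucla2 and Hibch lie beyond the TG intervals of these genes, at 0.55 and 0.69.

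Citrate synthase, the product of Cs, opens the cycle by joining acetyl-CoA to oxaloacetate. Cs stood at 1970.4, 1709.5, 1859 and 1599 CPM in TG replicates 1 to 4, against 1881, 1836, 1856 and 1594 CPM in WT replicates 1 to 4. The groups overlapped throughout, and the log2 fold change was -0.0060 (95% interval -0.24 to 0.23). The NAD-dependent isocitrate dehydrogenase, a main control point of the cycle, is built from the products of Idh3a, Idh3b and Idh3g, and the log2 fold changes of these subunits were 0.018, -0.0068 (-0.072 without TG replicate 2) and -0.062. Idh3g had the smallest p of the isocitrate dehydrogenases. It stood at 661, 592, 644 and 542 CPM in TG replicates 1 to 4, against 668, 698, 624 and 555 CPM in WT replicates 1 to 4. Its lowest value was in TG replicate 4 and its highest in WT replicate 2, and the other 6 libraries lay between. Idh3b stood at 612, 737, 625 and 627 CPM in TG replicates 1 to 4, against 636, 713, 685 and 580.3 CPM in WT replicates 1 to 4. TG replicate 2 was the highest and the other TG values lay close together. Idh2, which works outside this complex, stood at 1786, 1435, 1805 and 1504 CPM in TG replicates 1 to 4, against 1971, 1809, 1643 and 1051 CPM in WT replicates 1 to 4. It averaged 1632 ± 190.3 CPM over the TG libraries and 1619 ± 401 CPM over the WT libraries (mean ± SD, n = 4 each), and WT replicate 4 lay far below the other libraries, at 1051 CPM against at least 1435 CPM in the other 7 libraries. The log2 fold change of Idh2 was 0.012 with that library and -0.15 without it.

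Succinate-CoA ligase pairs the alpha subunit from Suclg1 with either beta subunit and makes ATP or GTP directly. Suclg2, the GDP-using beta subunit, stood at 139.6, 164, 142 and 134 CPM in TG replicates 1 to 4, against 129.96, 132, 152 and 139 CPM in WT replicates 1 to 4. TG replicate 2 was highest and the groups overlapped, with a log2 fold change of 0.070 (95% interval -0.15 to 0.29). Without TG replicate 2 it was 0.0062. For Suclg1 and Sucla2 the log2 fold change was -0.056 (95% interval -0.28 to 0.17) and -0.028 (95% interval -0.41 to 0.36). Succinate dehydrogenase, which is also complex II of the respiratory chain, is made of 4 nuclear-encoded subunits, and their log2 fold changes were 0.063 for the flavoprotein gene Sdha (0.0015 without TG replicate 2, its highest library), -0.053 for Sdhb, and -0.041 and -0.088 for the membrane anchors Sdhc and Sdhd. Sdha stood at 1024, 1195, 1008 and 1021 CPM in TG replicates 1 to 4, against 1000.4, 947, 1099 and 1022 CPM in WT replicates 1 to 4. TG replicate 2 was again the highest, and the other TG values lay within the WT range. Sdhd stood at 357, 361, 326 and 303 CPM in TG replicates 1 to 4, against 373, 419.9, 341 and 297 CPM in WT replicates 1 to 4. The highest and the lowest of these 8 values were both in WT.

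Fumarase, from Fh1, averaged 298 ± 29.96 CPM over the TG libraries and 305 ± 21.2 CPM over the WT libraries (mean ± SD, n = 4 each), and Mdh1 averaged 2019.7 ± 175 CPM over the TG libraries and 1984 ± 162 CPM over the WT libraries (mean ± SD, n = 4 each). Their log2 fold changes were -0.038 (95% interval -0.27 to 0.19) and 0.026 (95% interval -0.21 to 0.26). Mdh2 had the smallest p of the genes counted to the cycle and stood at 1637, 1366, 1508 and 1310.1 CPM in TG replicates 1 to 4, against 1679, 1764, 1491 and 1396 CPM in WT replicates 1 to 4. Its log2 fold change was -0.12 (95% interval -0.37 to 0.13), and the groups overlapped. It was -0.18 without TG replicate 1 and -0.065 without WT replicate 2, the lowest and highest with 1 library left out.

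The anaplerotic enzymes, which add carbon to the cycle or draw it off as pyruvate, held both the most negative and the most positive fold change. Me3 encodes the mitochondrial NADP-dependent malic enzyme, which converts malate to pyruvate. It stood at 107, 94.4, 113 and 87.2 CPM in TG replicates 1 to 4, against 122, 132, 104 and 118 CPM in WT replicates 1 to 4. The mean was 100.4 ± 11.7 CPM over the TG libraries and 119 ± 11.6 CPM over the WT libraries (SD, n = 4 each), and only WT replicate 3 lay within the TG range. The log2 fold change was -0.25 (95% interval -0.50 to -0.00035), and it did not pass the adjustment over all genes (edgeR, Benjamini-Hochberg adjusted p = 0.99955). It lay between -0.31 and -0.19 over the 20 other settings tried.

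Pcx stood at 45.8, 93.4, 43.8 and 37.0 CPM in TG replicates 1 to 4, against 49.1, 50.9, 35.5 and 38.1 CPM in WT replicates 1 to 4. TG replicate 2, the library with high levels of fat cell and atrial genes, stood above all other libraries, and the remaining 3 TG libraries lay inside the WT range. The log2 fold change was 0.34 (95% interval -0.21 to 0.88) with that library and -0.040 without it. The same library was the highest for the fat cell genes Adipoq, which encodes adiponectin, and Plin1, which coats lipid droplets, at 68.4 and 40.3 CPM against at most 3.12 and 1.93 CPM elsewhere. Of the 9 genes on that list, 7 were listed in every library and Lep, the leptin gene, and Ucp1, the brown fat uncoupling protein, were at 0 in several. Of the atrial markers, TG replicate 2 had 203 CPM of the light chain gene Myl7, against at most 46.8 CPM elsewhere, and 249 CPM of its relative Myl4, against at most 63.7 CPM. The part of either list in the Pcx value was not tested.

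In the shared early steps of branched-chain breakdown, Bckdk had the smallest p. It encodes the kinase that phosphorylates and switches off the ketoacid dehydrogenase. Bckdk stood at 174, 148, 182 and 139 CPM in TG replicates 1 to 4, against 188, 203, 156 and 170.4 CPM in WT replicates 1 to 4. The highest values were in WT replicates 1 and 2 and the lowest in TG replicates 2 and 4, and the ranges overlapped, with a log2 fold change of -0.16 (95% interval -0.42 to 0.10). It was -0.22 without TG replicate 3 and -0.094 without TG replicate 4, the lowest and highest with 1 library left out. Its target subunit gene Bckdha averaged 309 ± 53.8 CPM over the TG libraries and 339 ± 59.5 CPM over the WT libraries (mean ± SD, n = 4 each), a log2 fold change of -0.13 (95% interval -0.46 to 0.20). It was -0.22 without WT replicate 4 and -0.048 without WT replicate 2, the lowest and highest with 1 library left out. Bcat2, the mitochondrial aminotransferase, averaged 115 ± 24.6 CPM over the TG libraries and 118 ± 24.8 CPM over the WT libraries (mean ± SD, n = 4 each), a log2 fold change of -0.030 (95% interval -0.41 to 0.35). Bckdhb stood at 57.4, 49.7, 54.6 and 45.3 CPM in TG replicates 1 to 4, against 55.3, 51.2, 60.3 and 27.7 CPM in WT replicates 1 to 4. WT replicate 4 was far below the rest, and the log2 fold change was 0.090 (95% interval -0.34 to 0.52) with it and -0.10 without it. The TG values of Dbt ran between 23.7 and 44.1 CPM and the WT values between 30.6 and 33.2 CPM, so that the TG values lay on both sides of the WT values, with a log2 fold change of 0.14 (95% interval -0.22 to 0.51). It was 0.013 without TG replicate 2 and 0.29 without TG replicate 1, the lowest and highest with 1 library left out.

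Further down, the branches for valine, leucine and propionyl-CoA showed no gene past the threshold. Hibadh, the hydroxyisobutyrate dehydrogenase of valine breakdown, stood at 239.6, 282, 238 and 227 CPM in TG replicates 1 to 4, against 216, 245, 248 and 239 CPM in WT replicates 1 to 4. TG replicate 2 was highest and WT replicate 1 lowest. The log2 fold changes were 0.056 (95% interval -0.17 to 0.28) for Hibadh and 0.013 (95% interval -0.48 to 0.51) for the hydrolase gene Hibch, the step before it. Ivd, the isovaleryl-CoA dehydrogenase of leucine breakdown, stood at 258, 196, 231 and 182 CPM in TG replicates 1 to 4, against 273, 272, 227 and 182 CPM in WT replicates 1 to 4. The ranges overlapped almost fully, with a log2 fold change of -0.14 (95% interval -0.46 to 0.18). It was -0.25 without WT replicate 4 and -0.064 without WT replicate 1, the lowest and highest with 1 library left out. The subunits of methylcrotonyl-CoA carboxylase, Mccc1 and Mccc2, had log2 fold changes of -0.013 and 0.049.

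Of the steps from propionyl-CoA to succinyl-CoA, the carboxylase subunits Pcca and Pccb had log2 fold changes of -0.092 (95% interval -0.32 to 0.13) and -0.038 (95% interval -0.28 to 0.21). Mut stood at 37.4, 60.1, 40.04 and 50.8 CPM in TG replicates 1 to 4, against 49.6, 44.2, 61.1 and 58.7 CPM in WT replicates 1 to 4. The lowest values were in TG replicates 1 and 3 and the highest in TG replicate 2 and WT replicates 3 and 4, and the log2 fold change was -0.18 (95% interval -0.53 to 0.17). It was -0.32 without TG replicate 2 and -0.083 without TG replicate 1, the lowest and highest with 1 library left out. All 4 shallower libraries stood above all 4 deeper ones.

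The 30 genes differed more between shallower and deeper libraries than between TG and WT. In a fit with group and depth class together, 14 of the 30 (46.7%) differed between the classes (edgeR with Benjamini-Hochberg adjustment over all genes), where 32.2% of all genes tested did. Of these, 4 were higher in the shallower libraries (13.3%, against 17.8% of all genes tested) and 10 lower (33.3%, against 14.4%). The values of the classes did not overlap in 14 of the 30, where this held for 29.9% of all genes tested. The size of the log2 difference between classes exceeded that between groups in 27 of the 30 genes. No such count was made over all genes tested. In the fit with both terms, 32.2% of all genes tested passed between classes and 0.221% between groups. Shares of calls are another measure, so whether the 27 of the 30 is particular to these genes cannot be said. The difference between classes is one of counts relative to the library, since CPM values are already scaled for depth. Sums of markers differed between the classes too. The 6 cardiomyocyte markers summed to 57722 to 61955 CPM in the shallower and 66114 to 71729.6 CPM in the deeper libraries. Myh6, the largest part of that sum, averaged 23538 CPM in the shallower and 29172 CPM in the deeper libraries. Actc1, Myl2 and Tnni3 also averaged lower in the shallower libraries. Tnnt2 (5783 against 5331 CPM) and Ryr2 (1218 against 1066 CPM) averaged higher there. The 4 fibroblast markers summed to 1206 to 1627 CPM in the shallower and 1008 to 1091 CPM in the deeper libraries. The part of these markers in the differences was not tested.

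Hibch, the valine branch hydrolase, differed most. It stood at 46.2, 38.3, 45.1 and 39.7 CPM in the shallower libraries (TG replicates 2 and 4, then WT replicates 3 and 4), against 26.7, 26.4, 22.9 and 28.6 CPM in the deeper ones (TG replicates 1 and 3, then WT replicates 1 and 2). The classes did not overlap, and the log2 fold change was 0.69 (SE 0.10, adjusted p = 8.62e-04 by edgeR). Sucla2 had 304, 266, 302 and 291 CPM in the shallower and 199.5, 201, 199.5 and 197 CPM in the deeper libraries, in the same order. The deeper libraries lay close together and well below the others, with a log2 fold change of 0.55 (SE 0.067, adjusted p = 3.39e-04 by edgeR). Mut and Idh3a were the other genes higher in the shallower libraries, at 0.43 (SE 0.087, adjusted p = 0.00374 by edgeR) and 0.28 (SE 0.070, adjusted p = 0.0111 by edgeR).

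On the other side, Bcat2 was lower in the shallower libraries, with 102, 88.1, 114 and 84.5 CPM in the shallower and 141, 131, 136 and 137 CPM in the deeper libraries, in the same order. The classes did not overlap, and the log2 fold change was -0.49 (SE 0.091, adjusted p = 0.00256 by edgeR). Bckdha had 271, 257, 307 and 271 CPM in the shallower and 369, 339.9, 380.5 and 396 CPM in the deeper libraries, in the same order, a log2 fold change of -0.43 (SE 0.068, adjusted p = 0.00128 by edgeR). The other genes lower in the shallower libraries were Ivd, Idh2, Sdhb, Sdhc, Bckdk, Mdh2, Me3 and Idh3g, with log2 fold changes from -0.39 for Ivd to -0.21 for Idh3g. Subunits of 1 enzyme stood on opposite sides, with Idh3a higher and Idh3g lower. Beside Sdhb and Sdhc, which were lower, Sdha did not pass, at 0.12 (SE 0.069, adjusted p = 0.179 by edgeR). The heat map of levels by library marks the class of each column.

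**Figure D3:**
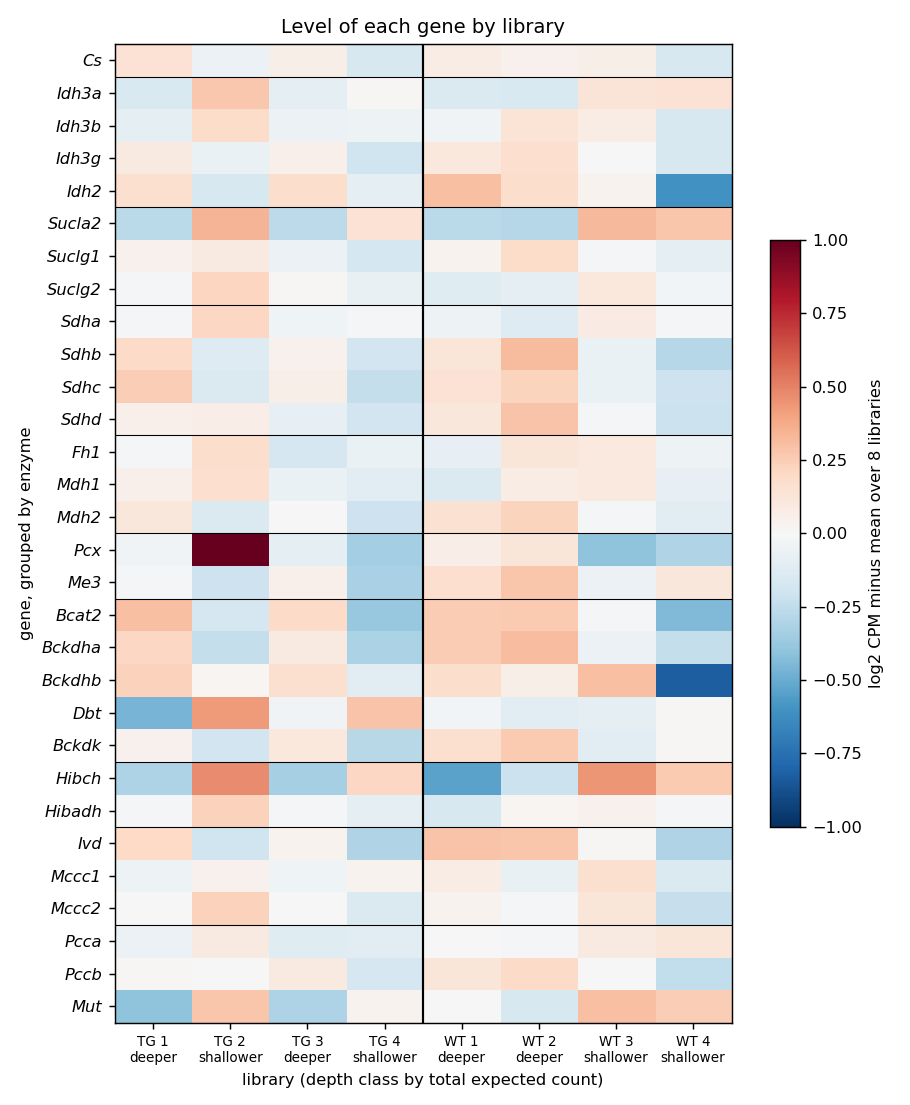
Log2 CPM of each gene minus its mean over the 8 libraries, with TG libraries left and WT libraries right of the line and the depth class under each name. Sucla2, Hibch and Mut are high in the shallower columns of both groups, Bcat2 and Bckdha are low there, and Pcx is high in TG replicate 2 at 93.4 CPM.

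The direction went with the base composition of the transcript. Over the 30 genes, Spearman's rho between the log2 fold change of shallower against deeper libraries and the GC content was -0.77, and over 12557 of the genes tested it was -0.71. These are descriptions across genes that share the same 8 libraries, and genes are not independent replicates. The GC content of the 4 genes called higher in the shallower libraries lay between 41.9% and 44.9%, and that of the 10 called lower between 47.0% and 57.9%. The 16 genes not called spanned 42.08% to 57.65%, and a gene not called can still differ. Dbt, at 42.08%, had a log2 fold change of 0.31 (SE 0.13, adjusted p = 0.0821 by edgeR). That of Idh3a, which was called, was 0.28. With transcript length rho was 0.46 over the 30 genes and 0.29 over all genes tested. Whether depth, base composition or another property of the libraries set these differences was not tested.

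Stretches of some of these transcripts are shown as an illustration only. The genes are the 2 of each side with the largest difference between the classes. Because each stretch was picked for its GC content, its count restates that of the transcript and adds no support. A stretch of 90 bases was taken from the coding sequence of 2 genes of each side, where its GC content was nearest to that of the whole GENCODE M21 transcript (mouse build GRCm38, sense strand), and capitals mark G and C. The stretches hold 38 G or C bases in Hibch (transcript positions 329 to 418) and 39 in Sucla2 (positions 345 to 434), which were higher in the shallower libraries. They hold 52 in Bckdha (positions 355 to 444) and 52 in Bcat2 (positions 366 to 455), which were lower there.
Hibch: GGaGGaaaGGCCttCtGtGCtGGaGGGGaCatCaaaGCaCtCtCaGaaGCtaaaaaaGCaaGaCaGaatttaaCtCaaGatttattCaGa
Sucla2: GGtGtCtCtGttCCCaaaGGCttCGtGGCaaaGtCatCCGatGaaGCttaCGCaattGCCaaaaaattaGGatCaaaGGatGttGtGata
Bckdha: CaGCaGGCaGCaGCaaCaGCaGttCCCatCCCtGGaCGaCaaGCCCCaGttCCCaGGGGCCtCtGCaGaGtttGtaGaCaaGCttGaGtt
Bcat2: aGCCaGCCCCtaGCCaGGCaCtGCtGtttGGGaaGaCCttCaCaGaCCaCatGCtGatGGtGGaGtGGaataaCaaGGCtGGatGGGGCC

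**Figure D4:**
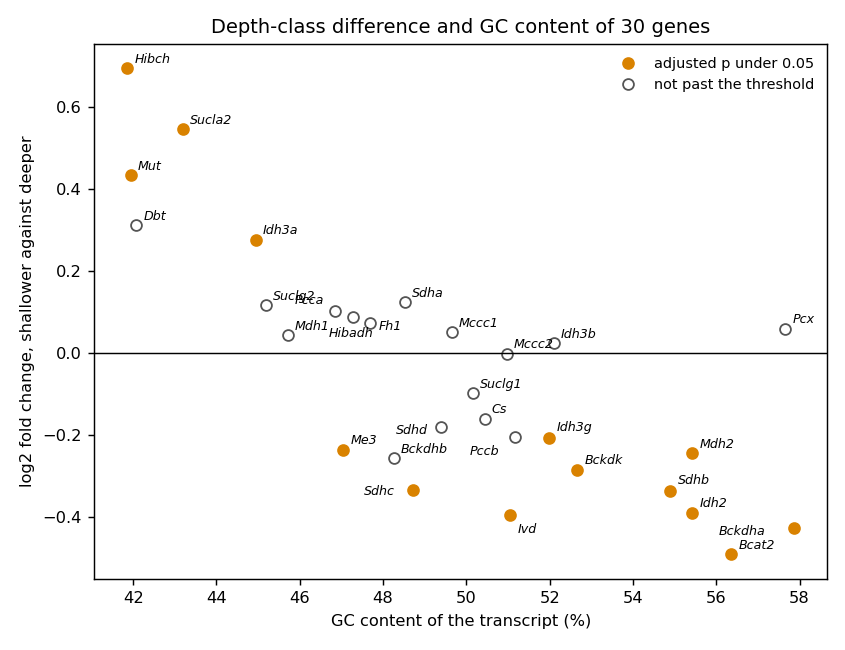
Log2 fold change of shallower against deeper libraries plotted against the GC content of the transcript for the 30 genes, filled where the adjusted p was under 0.05. Hibch at 41.9% GC stands at 0.69 and Bckdha at 57.9% GC at -0.43.

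Since each class holds 2 libraries of each group, TG and WT could be compared within a class. With the depth class as a covariate, the median standard error of the 30 log2 fold changes was 0.0781, against 0.119 with group alone. Again none of the 30 passed over all genes (smallest adjusted p = 0.274, for Me3, by edgeR with Benjamini-Hochberg adjustment), where 0.221% of all genes tested did. At an unadjusted p under 0.05 stood 3 of the 30, Me3, Bckdk and Mut, each lower in TG, where 8.97% of all genes tested were that low. Their log2 fold changes in this fit were -0.25 (SE 0.071), -0.16 (SE 0.067) and -0.19 (SE 0.087).

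In Me3, Bckdk, Mdh2 and Bckdha both TG values lay below both WT values in each class. These are 4 of the 30 genes (13.3%), where 4.69% of all genes tested did so, and none of the 30 was higher in this way, where 4.25% were. In Bckdha this rested on a small gap in the shallower class, where TG replicate 2 and WT replicate 4 stood at 270.96 and 270.98 CPM. The log2 fold change of Me3 was -0.29 within the shallower and -0.21 within the deeper libraries. For Bckdk it was -0.18 within the shallower and -0.14 within the deeper libraries, for Mdh2 -0.11 within the shallower and -0.13 within the deeper libraries and for Bckdha -0.13 within the shallower and -0.13 within the deeper libraries. Over the 30 genes the sign was the same in both classes in 16, of which 10 were negative and 6 positive. The share of all genes tested with the same sign in both classes was not counted. The interaction of group and depth class passed in 0 of the 30 and in 0 of all genes tested (edgeR with Benjamini-Hochberg adjustment), and at an unadjusted p under 0.05 it held in 2 of the 30, Pcx and Dbt, and in 4.93% of all genes tested.

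Ratios of partner genes within a library do not depend on how libraries are scaled. For 7 pairs the log2 ratio of CPM was compared between TG and WT by an exact two-sided permutation test, whose smallest possible p is 0.0286, with Benjamini-Hochberg adjustment over the 7. None passed (smallest adjusted p = 0.967). The ratio of Mdh1 to Mdh2 had the smallest unadjusted p, at 1.40 ± 0.179 over TG and 1.26 ± 0.161 over WT libraries (SD, n = 4 each, exact permutation p = 0.343). Bckdk to Bckdha, the kinase over its target, stood at 0.524 ± 0.0352 over TG and 0.536 ± 0.0622 over WT libraries (exact permutation p = 0.8286). The ratio of Pcx to Cs averaged 0.0311 ± 0.0157 over TG and 0.0242 ± 0.0037 over WT libraries (exact permutation p = 0.6), and was 0.0547 in TG replicate 2. For the subunit pairs Mccc2 to Mccc1 and Pccb to Pcca the log2 difference of TG from WT was 0.058 and 0.062 (exact permutation p = 0.514 and 0.8).

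The same ratios separated the depth classes. Sucla2 to Suclg2, the ADP-using over the GDP-using subunit, was 1.43, 1.85, 1.41 and 1.98 in TG replicates 1 to 4, against 1.54, 1.49, 1.99 and 2.10 in WT replicates 1 to 4. The shallower libraries of both groups had the higher ratios, from 1.85 to 2.10 against 1.41 to 1.54 in the deeper ones, and the log2 difference of TG from WT was -0.092 (exact permutation p = 0.514). Idh2 to Idh3a was 4.42, 2.65, 4.27 and 3.32 in TG replicates 1 to 4, against 4.86, 4.47, 3.35 and 2.12 in WT replicates 1 to 4. Here the shallower libraries had the lower ratios, from 2.12 to 3.35 against 4.27 to 4.86. Mdh1 to Mdh2 and Pccb to Pcca were also apart between the classes, and the other 3 ratios overlapped.

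**Figure D5:**
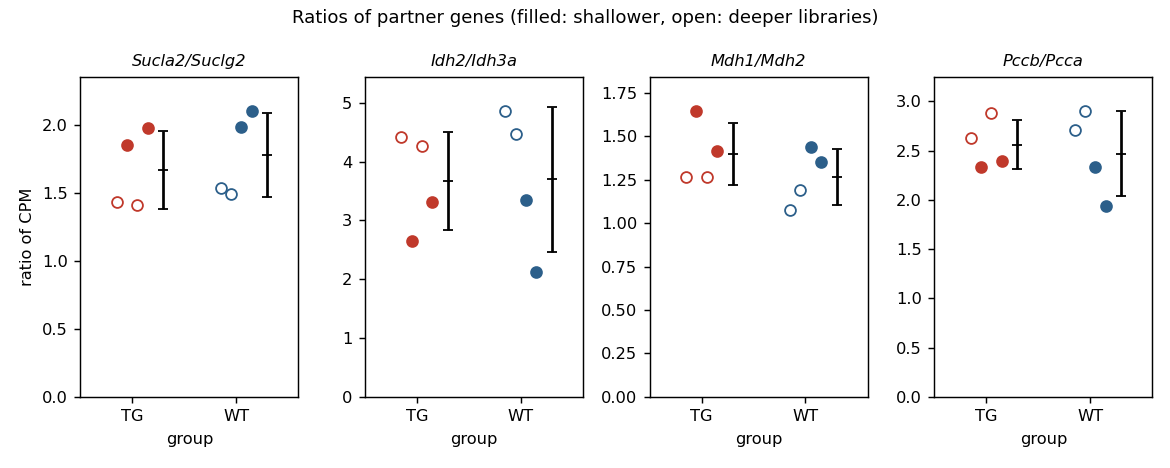
Ratio of CPM of 4 partner pairs in each library, TG left of WT, filled for shallower and open for deeper libraries, with the mean and SD of the 4 libraries of a group as a black bar. Filled and open points do not overlap in any of these 4 pairs, while TG and WT do, as in Sucla2 to Suclg2 at 1.67 ± 0.29 over TG and 1.78 ± 0.31 over WT libraries.

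Around these genes, 62 others of the same routes were listed and all were tested, in 5 lists, and none passed over all genes with group alone (edgeR with Benjamini-Hochberg adjustment). Of the 10 other genes of the cycle and of isocitrate and succinate dehydrogenase assembly, 6 had a positive and 4 a negative fold change, and the list's median was 0.031. The exception in size was Ogdhl, which resembles the E1 subunit of the oxoglutarate dehydrogenase, at 105, 76.8, 102 and 62.7 CPM in TG replicates 1 to 4, against 149, 165, 150.3 and 166 CPM in WT replicates 1 to 4. The groups did not overlap, and its log2 fold change was -0.86 (95% interval -1.19 to -0.54), short of the threshold with group alone (edgeR, Benjamini-Hochberg adjusted p = 0.139) and past it with the depth class added to the fit (adjusted p = 0.00696). Ogdh itself, the main E1 gene, averaged 4057 ± 517 CPM over the TG libraries and 3903 ± 382 CPM over the WT libraries (mean ± SD, n = 4 each). Its log2 fold change was 0.056.

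Of the 11 genes of the pyruvate dehydrogenase complex and its kinases and phosphatases, none had an unadjusted p under 0.05 in edgeR, and the median log2 fold change was 0.041. The smallest p in that list was that of Pdhx, which tethers the E3 component, at 145 ± 15.3 CPM over the TG libraries and 133 ± 16.6 CPM over the WT libraries (mean ± SD, n = 4 each). Pdk4, the fasting-induced kinase of the complex, lay at 170.2 to 227 CPM over the TG libraries and 74.7 to 551 CPM over the WT libraries, so that the WT libraries alone spanned the whole range. Of 13 shuttle and carrier genes, Slc25a1, the mitochondrial citrate carrier, was the 1 with an unadjusted p under 0.05 in edgeR, on the higher side. It stood at 12.9, 67.1, 12.1 and 9.36 CPM in TG replicates 1 to 4, against 12.8, 12.7, 8.12 and 8.71 CPM in WT replicates 1 to 4. TG replicate 2 alone was high, as it was for Acly, the ATP citrate lyase that splits exported citrate, at 139 CPM against 41.0 to 53.8 CPM in the other 7 libraries. The fat cell, lipid synthesis and atrial genes were high in the same library, and their part in these values was not tested.

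The 17 other genes of branched-chain breakdown and transport had a median log2 fold change of -0.048, with 11 negative and 6 positive and none at an unadjusted p under 0.05 in edgeR. The smallest p was that of Mcee, the methylmalonyl-CoA epimerase that acts before Mut, at 71.9 ± 4.97 CPM over the TG libraries and 83.6 ± 15.97 CPM over the WT libraries (mean ± SD, n = 4 each). Among 11 regulators of mitochondrial genes none had such a p, and the smallest was that of Ppargc1b, a coactivator, at 38.3 ± 5.95 CPM over the TG libraries and 32.7 ± 7.79 CPM over the WT libraries (mean ± SD, n = 4 each). Ppargc1a, its better known relative, averaged 93.8 ± 38.5 CPM over the TG libraries and 74.4 ± 28.6 CPM over the WT libraries (mean ± SD, n = 4 each), and was higher in the shallower libraries, at a log2 fold change of 0.80 (SE 0.17, adjusted p = 0.00416 by edgeR). Dld, the E3 subunit that the oxoglutarate, pyruvate and branched-chain ketoacid dehydrogenases share, had 237, 194, 217 and 211 CPM in the shallower and 129, 141, 137 and 131 CPM in the deeper libraries, in the same order. Its log2 fold change between the depth classes was 0.67 (SE 0.076, adjusted p = 2.36e-04 by edgeR), and between TG and WT it was 0.011 (95% interval -0.45 to 0.47).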

How the data were processed

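The members and the lists of further genes were chosen with earlier results of these data known, and so were the depth classes and the tests on them. Per the file headers, each deposited table gives an expected count (an estimated count, not normalized), an FPKM value and a length per NCBI Gene number. The submitters' processing notes list Bowtie2 and build mm8, while the counting program and its use of strand are not given in the sources used here. Genes absent from a table were taken as 0 in it. Symbols were matched by number for 18174 of 18215 genes through a table of GRCm38.p6, used for names only.

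Expected counts were rounded to whole numbers and filtered with edgeR's filterByExpr (count of at least 10, total of at least 15), leaving 12670 genes for testing. The main test was edgeR's quasi-likelihood F-test (edgeR 4.0.16, R 4.3.3, TMM scaling, group alone, two-sided) at a Benjamini-Hochberg adjusted p of 0.05. Intervals of fold changes are 95% intervals from the standard error of that fit, and 3 counts in a library are 0.38 to 0.479 CPM. Libraries were classed as shallower or deeper at the largest gap in total counts. Alternatives used DESeq2 1.42.0, limma 3.58.1 and the settings named in the closing section. The scripts were tested on simulated counts. GC content came from GENCODE transcripts matched by RefSeq accession, for 17888 genes and all 30 members. No pair of libraries of a group agreed within sampling noise (smallest chi-square per degree of freedom 4.46). Values in every library are given for the member of each enzyme group with the smallest p and for members in which 1 library departs. Those given by depth class, and, of the further genes, Ogdh, Pdk4, Acly, Ppargc1a and Dld, were chosen after their values were seen. Carboxylase subunits, malate dehydrogenases and other members with related copies could share reads, which the tables do not resolve.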

Additional observations from a re-analysis of the deposited data

Results flagged for a closer look

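Among 60 sets of 4 libraries (30 genes in each group), 4 had a library whose gap to the nearest other was larger than Dixon's critical share of the range of the group at 95%, where chance gives about 1 in 20 sets. Pcx stood at 93.4 CPM in TG replicate 2, with 45.8 CPM as the next highest TG value. Sdha stood at 1195 CPM in the same library, with 1024 CPM next, and Idh3b at 737 CPM, with 627 CPM next. Without TG replicate 2 the log2 fold changes of TG against WT were -0.040 for Pcx, 0.0015 for Sdha and -0.072 for Idh3b, against 0.34, 0.063 and -0.0068 with it. Cs stood at 1594 CPM in WT replicate 4, below 1836 CPM as the next lowest WT value, and its log2 fold change was -0.058 without that library.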

How the results depend on the processing

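None of the 30 genes was called in any of the 20 settings tried (smallest adjusted p = 0.274, Me3 with depth class added to the fit), and the median of their log2 fold changes lay between -0.081 and 0.017. Over all genes, 2 were called as reported, 15 by DESeq2, 4 with no filter on low counts, 1 by limma at a pseudocount of 1 FPKM and 1 at 0.1 FPKM, 28 with the depth class as a covariate, 59 in the deeper and 4 in the shallower libraries only, 0 with Carns1 left out (441 at an unadjusted p under 0.05 in edgeR), and 1 to 3 when 1 library was left out (1 without TG replicate 2, TG replicate 4, WT replicate 2 or WT replicate 3). Whether the replicate numbers pair the samples could not be told. Deviations of same-numbered libraries correlated at 0.24, -0.28, -0.18 and 0.40 for numbers 1 to 4. Numbers 1 and 4 join libraries of the same depth class, and numbers 2 and 3 join libraries of different classes. TG replicate 1 and WT replicate 2, of the same class but unlike numbers, correlated at 0.46. A fit with the replicate block called 1 gene. The count of the 30 that differed between the depth classes, reported as 14, was 14 by DESeq2, 12 with limma on log2(FPKM + 1) and 11 to 17 when 1 library was left out, all chosen after the data were seen. Most values lay near 0 and 20 of the 30 changed sign in some setting, with no call on either side. In the deeper libraries only, the log2 fold changes of opposite sign to those reported were Cs 0.043, Idh2 -0.075, Sucla2 0.013, Pcx -0.16, Dbt -0.17 and Mccc2 -0.0051. In the shallower libraries only they were Idh3b 0.11, Suclg1 0.017, Sdhb 0.018, Sdhd 0.059, Fh1 0.037, Hibch -0.0046, Mccc1 0.025 and Pccb 0.042, and with voom and library weights Idh2 -0.023 and Sucla2 0.016. Leaving out 1 library at a time gave ranges that crossed 0, namely -0.072 to 0.038 for Idh3b, -0.15 to 0.12 for Idh2, -0.16 to 0.081 for Sucla2, -0.061 to 0.041 for Mccc1, -0.058 to 0.044 for Cs, -0.075 to 0.073 for Idh3a, -0.13 to 0.029 for Sdhc, -0.028 to 0.065 for Mdh1, -0.040 to 0.49 for Pcx, -0.16 to 0.080 for Bcat2, -0.16 to 0.18 for Hibch, -0.015 to 0.095 for Hibadh, -0.023 to 0.10 for Mccc2, -0.11 to 0.0087 for Fh1, -0.15 to 0.053 for Sdhb, -0.12 to 0.023 for Pccb, -0.10 to 0.21 for Bckdhb, -0.22 to 0.18 for Idh2/Idh3a, -0.065 to 0.050 for Bckdk/Bckdha, -0.040 to 0.37 for Pcx/Cs and -0.050 to 0.14 for Pccb/Pcca. In Me3 (-0.31 to -0.19), Bckdk (-0.22 to -0.094), Mdh2 (-0.18 to -0.065), Bckdha (-0.22 to -0.048), Ivd (-0.25 to -0.064), Idh3g (-0.12 to -0.0086), Mut (-0.32 to -0.083), Pcca (-0.14 to -0.067), Suclg1 (-0.095 to -0.0026), Sdhd (-0.17 to -0.0020), Sdha (0.0015 to 0.10), Suclg2 (0.0062 to 0.12) and Dbt (0.013 to 0.29) the range stayed on 1 side of 0. The cause was not tested. Me3, Bckdk, Mdh2, Bckdha, Ivd, Idh3g, Mut and Pcca stayed negative and Sdha and Suclg2 positive in all 20. With 4 libraries a group, differences smaller than the printed intervals could not be detected, and p-values of the exact tests cannot go below 0.0286.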

Other observations

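The 30 genes together took 1.33% to 1.55% of the counts in TG libraries and 1.305% to 1.596% in WT libraries. The lowest shares were in TG replicate 4 (1.33%) and WT replicate 4 (1.305%), both shallower libraries. The same 2 libraries had the lowest median of the 30 genes relative to the mean over libraries, at -0.13 and -0.13 on the log2 scale, where the median over all genes tested was 0.0020 and 0.011. They also had the highest summed levels of 4 fibroblast markers, at 1627 and 1435 CPM against 1008 to 1338 CPM in the other 6. Their summed levels of 6 cardiomyocyte markers were the lowest, at 60288 and 57722 CPM against 61405.5 to 71729.6 CPM in the other 6. Single cardiomyocyte markers could differ from that sum, as Ryr2 was highest in WT replicate 4, at 1353 CPM. These values were seen first and are given as a description.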
